A study of Homo sapiens with 60 samples.

Results

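The comparison described here set 3 libraries of HepG2 cells treated with a water extract of Rehmanniae Radix Preparata at 500 µg/mL against 3 libraries of the same cells treated with the same extract at 20 µg/mL. These 6 libraries were chosen by the extract and dose in the sample labels, out of 60 libraries in all. Rehmanniae Radix Preparata is the prepared root of Rehmannia, a herb of East Asian medicine, and HepG2 is a human liver carcinoma line that makes many hepatocyte proteins. Per the labels, dried herb was extracted in hot water, the extract was freeze-dried, and the cells were exposed for 24 h. The groups used are Rehmanniae Radix Preparata at 500, 100 and 20 µg/mL, Cnidii Rhizoma and the multi-herb formula Samul-tang, both as water extracts at 500 and 20 µg/mL, and vehicle (dimethyl sulfoxide, DMSO). Each of these groups had 3 libraries. Rehmanniae Radix Preparata and Cnidii Rhizoma share the first number of their sample codes, 5, called set 5 here, while Samul-tang has 7 and the vehicle codes carry no such number. The labels do not say what this number means, and all sample titles, vehicle included, name BatchB. Since both doses come from set 5, vehicle enters neither side of the main comparison. All libraries are of 1 tumour line, and nothing in the labels says whether replicates were separate cultures. P-values therefore measure a spread between libraries, which may be technical. That spread was estimated jointly over 57 libraries in 19 groups. Besides the groups above, these were water extracts of Cnidii Rhizoma and Samul-tang at 100 µg/mL. The rest were Cinnamomi Cortex, Astragali Radix and Sagunja-tang at 500, 100 and 20 µg/mL.

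Total counts were 23118498, 27920363 and 27423368 in the libraries at 500 µg/mL, against 21906823, 18517548 and 25098490 at 20 µg/mL. Levels are CPM, read counts scaled to the same library total, and fold changes are log2 values ± SE from 1 model of 57 libraries, positive where a gene was higher at 500 µg/mL. A gene was called at an adjusted p under 0.05. Gene positions are on build GRCh38, from GENCODE release 29. The 10 liver markers were detected in all 6 libraries and summed to 56703 to 57418 CPM at 500 µg/mL, against 58437 to 59370 CPM at 20 µg/mL. Of 22 markers of other cell types, summed to 1518 to 1703 CPM against 1430 to 1651 CPM, the blood cell gene MS4A1, the haemoglobin gene HBB, the matrix genes DCN and LUM and the keratins KRT5 and KRT14 had 0 counts in all 6. The blood cell genes PTPRC and CD3E had 2 and 1 counts, each summed over the 6. Others were detected in every library, with 190734 counts for the lysozyme gene LYZ, 18455 for the tubulin TUBB3, 9470 for the actin ACTA2, 8751 for the macrophage marker CD68 and 399 for CD14, each summed over the 6. Genes of the mitochondrial genome took 20.4%, 16.9% and 15.2% of the counts at 500 µg/mL, against 16.9%, 15.6% and 16.5% at 20 µg/mL. The libraries overlap in this share, and replicate 1 at 500 µg/mL stands above the other 5. The difference of 1.17 percentage points did not pass a two-sided exact permutation test (p = 0.7; n = 3 and 3 cannot go below 0.1), and it was -0.28 without that replicate.

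Several well-studied circuits bear on the genes described below. NRF2 is a transcription factor that is held inactive by KEAP1 and, when released by electrophiles or oxidants, turns on genes for glutathione synthesis, quinone reduction and iron storage through a DNA motif called the antioxidant response element. The aryl hydrocarbon receptor (AhR) is a ligand-activated factor that turns on CYP1A1 and other enzymes of foreign compound metabolism. In hepatocytes, bone morphogenetic proteins (BMPs) act through SMAD1, SMAD5 and SMAD9 to switch on HAMP, which encodes the iron hormone hepcidin, together with the ID genes and the feedback inhibitor SMAD7. Metallothioneins are small cysteine-rich proteins that bind zinc and copper and are turned on by the zinc sensor MTF1 through metal response elements.

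Promoters of genes described below are shown here because each carries, within 250 bases before the RefSeq start site, the letters of the element for which its circuit is known. They are RefSeq sequences on build GRCh38.p14, written in the direction of transcription, with matches in capitals. The antioxidant response element was searched as TGACNNNGC, the BMP response element as GGCGCC and the metal response element as TGCACNC or TGCGCNC, on both strands. GPX2 (chr14:64942746-64942995, minus strand) and GCLM (chr1:93909431-93909680, minus strand) each hold 1 antioxidant response element match, GCTAAGTCA starting 122 bases and GCTTAGTCA starting 34 bases before the start site. HAMP (chr19:35282278-35282527, plus strand) holds 1 BMP response element match, starting 105 bases before it. MT2A (chr16:56608334-56608583, plus strand) holds 7 metal response element matches, and in none of these promoters do the matches in capitals overlap.
GPX2: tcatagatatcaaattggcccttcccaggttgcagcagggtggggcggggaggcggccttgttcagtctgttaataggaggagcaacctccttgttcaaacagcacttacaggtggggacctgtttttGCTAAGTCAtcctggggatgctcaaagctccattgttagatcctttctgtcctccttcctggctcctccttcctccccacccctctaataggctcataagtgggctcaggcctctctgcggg
GCLM: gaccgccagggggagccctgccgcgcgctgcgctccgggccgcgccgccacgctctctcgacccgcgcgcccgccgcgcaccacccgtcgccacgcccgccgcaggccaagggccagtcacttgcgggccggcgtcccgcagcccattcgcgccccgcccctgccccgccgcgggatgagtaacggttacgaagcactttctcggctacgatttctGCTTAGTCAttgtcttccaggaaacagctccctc
HAMP: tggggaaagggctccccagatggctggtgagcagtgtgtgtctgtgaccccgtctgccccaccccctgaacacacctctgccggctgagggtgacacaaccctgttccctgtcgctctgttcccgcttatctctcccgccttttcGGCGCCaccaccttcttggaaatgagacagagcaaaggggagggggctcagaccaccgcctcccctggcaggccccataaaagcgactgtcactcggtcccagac
MT2A: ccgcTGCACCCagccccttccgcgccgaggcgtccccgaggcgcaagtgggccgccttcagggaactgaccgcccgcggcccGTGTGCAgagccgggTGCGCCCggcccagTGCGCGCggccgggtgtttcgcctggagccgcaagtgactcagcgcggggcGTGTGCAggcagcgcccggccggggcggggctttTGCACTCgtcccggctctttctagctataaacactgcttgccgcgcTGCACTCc
Such letters are common. Of 27305 RefSeq promoters, 11% hold the antioxidant motif, 16.1% the BMP motif and 24.7% the metal motif in this window. Among the 44 of 58 higher genes found in the table, 6 hold the antioxidant motif (13.6%), and among the 37 of 51 lower genes found, 8 hold the BMP motif (21.6%). The BMP motif was found in 13 of the 44 higher genes as well (29.5%). In this window NQO1, AKR1C1, AKR1C2, PIR, SRXN1, TXN, SQSTM1, OSGIN1 and FTL have no match to the antioxidant letters. ID1, ID2, ID3 and SMAD7 have none to the BMP letters. MT1X and MT2A, not called in the main comparison, each hold 1 antioxidant match, which is not in capitals above for MT2A. A match is a description of the sequence.

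At 500 µg/mL, 58 genes rose and 51 fell against 20 µg/mL, out of 16167 tested (edgeR's quasi-likelihood test, Benjamini-Hochberg). These are 0.359% and 0.315% of the genes tested, together 109 genes or 0.674%, and 1692 genes had an unadjusted p under 0.05. The changes were small. Called log2 fold changes ran from -1.64 to 1.25 with a median size of 0.32, and 3 genes changed at least 2-fold, namely ALDH3A1, HAMP and the long non-coding RNA EPCAM-DT. The median over all genes tested was -0.0022. Of the higher genes, 56 are annotated as protein-coding and 2 as antisense RNAs, and of the lower genes 49 are protein-coding, 1 is a lincRNA and 1 a pseudogene. In all 109 genes the 3 libraries at 500 µg/mL lay on 1 side of the 3 at 20 µg/mL, which was so for 14.8% of the genes tested. The syntrophin SNTB1 (-0.15 ± 0.039, adjusted p = 0.0466) was the last gene inside the threshold and the telomere protein TERF2 (0.18 ± 0.047, adjusted p = 0.0531) the first outside it. The count was 69 without replicate 3 at 500 µg/mL and between 84 and 107 without any 1 of the other 5 libraries.

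**Figure D1:**
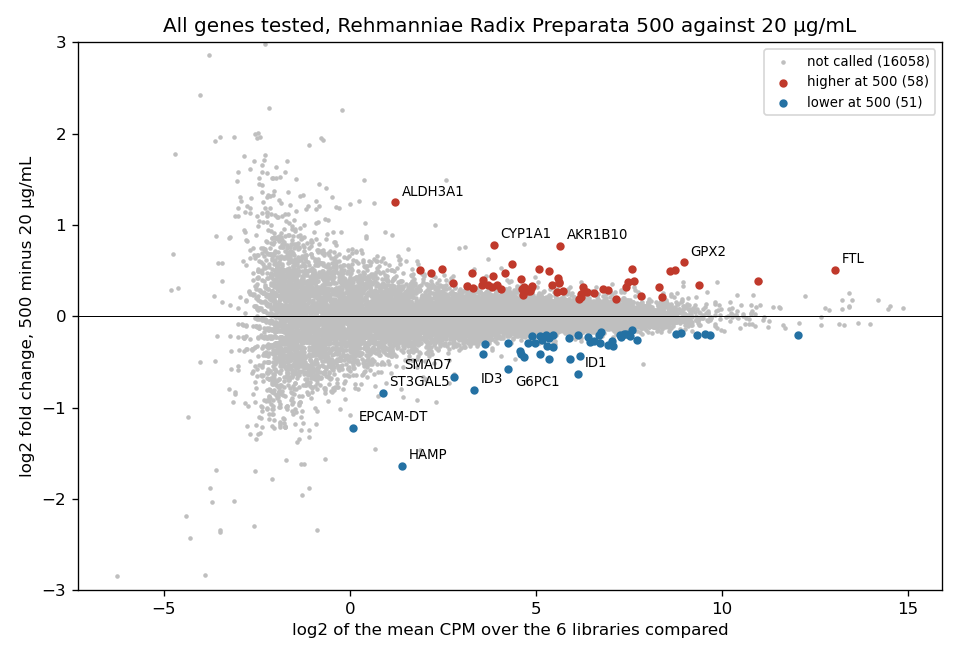
Each point is a gene tested, with the log2 of its mean CPM over the 6 libraries compared on the x axis and its log2 fold change, 500 minus 20 µg/mL, on the y axis; red marks the 58 genes called higher and blue the 51 called lower, and 51 genes outside the axes or with 0 counts in these libraries are not drawn. ALDH3A1 at 1.25 and HAMP at -1.64 stand at the ends of the called range.

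Among the higher genes, the largest group was made of NRF2 targets, and all 14 called members of that list of 24 were higher (58.3% against 0.359% of all genes). All 24 measured members had a positive fold change, from 0.02 to 0.77, with a median of 0.27. No member was called lower. The list was drawn up with earlier results of these data known.

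The list holds detoxifying reductases and quinone enzymes, and its largest rise was that of 1 of them. AKR1B10, an aldo-keto reductase that clears reactive aldehydes (ENSG00000198074; chromosome 7, 134527592 to 134541408), had 64.4, 63.5 and 63.3 CPM at 500 µg/mL, against 38.2, 34.1 and 39.3 CPM at 20 µg/mL. The doses are far apart and the 3 replicates at 500 µg/mL lie close together. The fold change was 0.77 ± 0.069 (adjusted p = 1.32e-10). NQO1, the quinone reductase (ENSG00000181019; chromosome 16, 69706996 to 69726951), had 488, 508 and 513 CPM, against 344, 344 and 375 CPM, a change of 0.50 ± 0.050 (adjusted p = 2.21e-09). The hydroxysteroid dehydrogenases AKR1C2 (0.52 ± 0.059) and AKR1C1 (0.32 ± 0.052) rose too, though near-identical sequences mean that their reads may be split between them with error. AKR1C2 had 219, 227 and 232 CPM at 500 µg/mL, against 154, 169 and 151 CPM at 20 µg/mL.

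Genes of glutathione and thioredoxin metabolism rose as well. GCLM, the modifier subunit of the enzyme that starts glutathione synthesis (ENSG00000023909; chromosome 1, 93885205 to 93909456), had 47.4, 45.9 and 48.9 CPM at 500 µg/mL, against 31.9, 30.3 and 38.04 CPM at 20 µg/mL. This is a change of 0.50 ± 0.078 (adjusted p = 6.26e-05), with the third replicate at 20 µg/mL above the other two. The catalytic subunit GCLC was at 0.16 and did not pass (95% interval 0.07 to 0.25, adjusted p = 0.0849). Glutathione reductase GSR (0.19 ± 0.041), thioredoxin TXN (0.30 ± 0.059) and sulfiredoxin SRXN1 (0.26 ± 0.056), which recycle oxidised glutathione, proteins and peroxiredoxins, were called, though GSR and SRXN1 lost their calls in 2 and 3 of the 6 fits without 1 library. Thioredoxin reductase TXNRD1, at 0.14 (0.02 to 0.27, adjusted p = 0.38), and the cystine transporter SLC7A11, at 0.22 (0.07 to 0.36, adjusted p = 0.175), were not. Outside the list, the selenium-dependent glutathione peroxidase GPX2 (ENSG00000176153; chromosome 14, 64939152 to 64942905) was among the 12 largest rises. It had 584, 611 and 619 CPM at 500 µg/mL, against 430, 364 and 411 CPM at 20 µg/mL (0.59 ± 0.068, adjusted p = 1.27e-07).

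Haem and iron storage genes of the same list were also higher. HMOX1, haem oxygenase, had 88.3, 81.5 and 87.6 CPM at 500 µg/mL, against 71.5, 71.2 and 69.6 CPM at 20 µg/mL (0.28 ± 0.050, adjusted p = 0.000505). The ferritin light chain FTL (chromosome 19, 48965301 to 48966878) had 10463, 9447 and 9559 CPM, against 7727, 6290 and 6744 CPM, a change of 0.51 ± 0.080 (adjusted p = 7.05e-05). The heavy chain FTH1 had 2167, 2321 and 2284 CPM, against 1751, 1700 and 1732 CPM (0.39 ± 0.065, adjusted p = 0.000196). Neither chain overlapped between doses. Both have processed pseudogenes, so their counts are less certain than those of single-copy genes. The remaining called members were the autophagy receptor SQSTM1 (0.38 ± 0.045), the growth inhibitor OSGIN1 (0.42 ± 0.075) and the conjugate exporter ABCC3 (0.34 ± 0.067). The members that did not pass include the pentose phosphate genes TALDO1 (0.17), TKT (0.21) and PGD (0.02). They also include ABCC2 (0.14), AKR1C3 (0.17) and the small MAF protein MAFG (0.03).

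NFE2L2, which encodes NRF2 itself and was looked up after its value was seen, was lower in RNA. It had 169, 150 and 144 CPM at 500 µg/mL, against 181, 169 and 180 CPM at 20 µg/mL, a fall of 0.20 on the log2 scale (SE 0.050, adjusted p = 0.0394). The highest library at 500 µg/mL, replicate 1, lies just under the lowest at 20 µg/mL, and the call was lost in 4 of the 6 fits that left out 1 library.

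**Figure D2:**
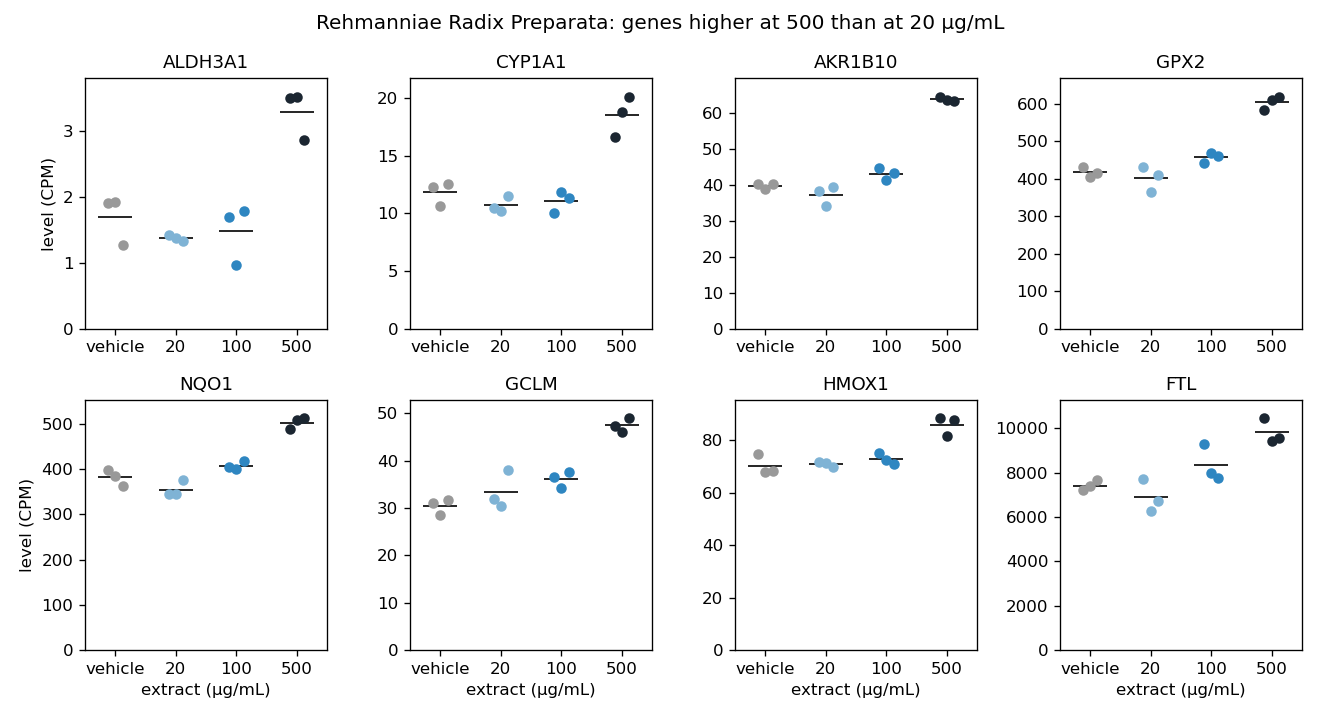
Points are CPM of single libraries and lines their means (n = 3) in vehicle and at 20, 100 and 500 µg/mL of Rehmanniae Radix Preparata for 8 genes called higher at 500 than at 20 µg/mL. For each of these 8 genes all libraries at 500 µg/mL lie above all those at 100 and 20 µg/mL and of vehicle.

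AhR targets held the largest rise of all. ALDH3A1, an aldehyde dehydrogenase (ENSG00000108602; chromosome 17, 19737984 to 19748943), had 3.49, 3.51 and 2.86 CPM at 500 µg/mL, against 1.42, 1.38 and 1.33 CPM at 20 µg/mL. This rests on 77, 98 and 80 reads, against 31, 26 and 34 reads, and gave a change of 1.25 ± 0.20 (adjusted p = 9.73e-05). CYP1A1, the classic AhR-induced cytochrome P450 (ENSG00000140465; chromosome 15, 74719542 to 74725610), had 16.6, 18.8 and 20.1 CPM, against 10.5, 10.2 and 11.5 CPM (0.78 ± 0.11, adjusted p = 3.18e-06). Both genes were clear of overlap. With NQO1, which both lists hold, 3 of 8 measured AhR targets were higher (37.5% against 0.359% of all genes) and none was lower. The receptor's own feedback genes AHRR (-0.48 ± 0.35, adjusted p = 0.693) and TIPARP (-0.08 ± 0.073, adjusted p = 0.763) did not pass, and AHRR was under 1 CPM.

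The other genes among the 12 largest rises have more varied roles. PIR, a nuclear iron-binding protein (chromosome X, 15384799 to 15493564), had 24.4, 24.6 and 23.9 CPM at 500 µg/mL, against 15.4, 15.5 and 18.02 CPM at 20 µg/mL (0.57 ± 0.068, adjusted p = 2.24e-07). IKBKG, the regulatory subunit of the IκB kinase, rose by 0.52 ± 0.077, but it has a near-identical pseudogene, so its reads are uncertain. The unconventional myosin MYO15B (0.52 ± 0.12) and the co-chaperone DNAJC17 (0.50 ± 0.13) lost their calls in 3 and 6 of the 6 fits without 1 library. Below these in size came SPP1, the secreted phosphoprotein osteopontin, with 423, 478 and 472 CPM at 500 µg/mL, against 314, 334 and 328 CPM at 20 µg/mL (0.49 ± 0.067, adjusted p = 3.46e-06). The microsomal glutathione transferase MGST1 (0.37 ± 0.062), named after its value was seen, was also higher. Bilirubin glucuronosyltransferase UGT1A1 rose by 0.44 ± 0.086. UGT1A1 was the 1 called gene of 10 measured on the list of nuclear receptor drug metabolism, beside 0.359% of all genes called higher. Its exons are shared with other UGT1A genes, so reads may be assigned with error. Its call was lost in 1 of the 6 fits without 1 library.

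Genes of hepcidin and BMP signalling made up the largest group among the falls. Of 12 measured members of that list, 5 were lower (41.7% against 0.315% of all genes) and none higher, with a median of -0.19. They are HAMP, ID1, ID2, ID3 and SMAD7. The other inhibitory SMAD of the list, SMAD6, was not called.

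HAMP (ENSG00000105697; chromosome 19, 35280716 to 35285143) had 1.18, 1.51 and 1.14 CPM at 500 µg/mL, against 4.71, 3.25 and 4.00 CPM at 20 µg/mL. These are 26, 42 and 32 reads, against 103, 61 and 102 reads. The fall was the largest of all called genes, at -1.64 ± 0.20 (adjusted p = 2.57e-07), and the doses do not overlap. The inhibitor of DNA binding ID3 (ENSG00000117318; chromosome 1, 23557918 to 23559794) had 6.26, 6.99 and 8.71 CPM, against 14.2, 13.1 and 11.5 CPM (-0.81 ± 0.12, adjusted p = 2.34e-05). ID1 (ENSG00000125968; chromosome 20, 31605283 to 31606515) had 52.4, 53.5 and 58.6 CPM, against 84.4, 87.3 and 83.9 CPM (-0.63 ± 0.092, adjusted p = 1.68e-05). ID2, of the same family, varied little within a dose. It had 51.1, 50.7 and 49.8 CPM at 500 µg/mL, against 70.4, 69.6 and 70.5 CPM at 20 µg/mL (-0.47 ± 0.078, adjusted p = 0.000138). SMAD7, the inhibitory SMAD that limits this pathway (ENSG00000101665; chromosome 18, 48919853 to 48952052), had 5.17, 5.63 and 5.28 CPM, against 8.65, 8.73 and 8.20 CPM (-0.66 ± 0.090, adjusted p = 3.46e-06).

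The signal-carrying and receptor genes of the list did not pass. The receptor SMADs SMAD1 (-0.14 ± 0.11), SMAD5 (0.03 ± 0.064) and SMAD9 (-0.24 ± 0.068, adjusted p = 0.0913), the receptors BMPR2 (-0.08 ± 0.050) and ACVR1 (0.01 ± 0.080), and the protease TMPRSS6 (0.05 ± 0.16) were not called. The other inhibitory SMAD, SMAD6, was at -0.13 (95% interval -0.40 to 0.13). Among iron genes, 3 of 11 measured were higher (27.3% against 0.359% of all genes). They were both ferritin chains and the ferrireductase STEAP3 (0.26 ± 0.057, adjusted p = 0.00729), whose call was lost in 1 of the 6 fits without 1 library. The transferrin receptor TFRC, at -0.09 (-0.20 to 0.02), transferrin TF, at -0.08 (-0.18 to 0.03), and the iron exporter ferroportin SLC40A1, at -0.17 (-0.28 to -0.06, adjusted p = 0.151), were not called. The median of the iron list was -0.05.

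**Figure D3:**
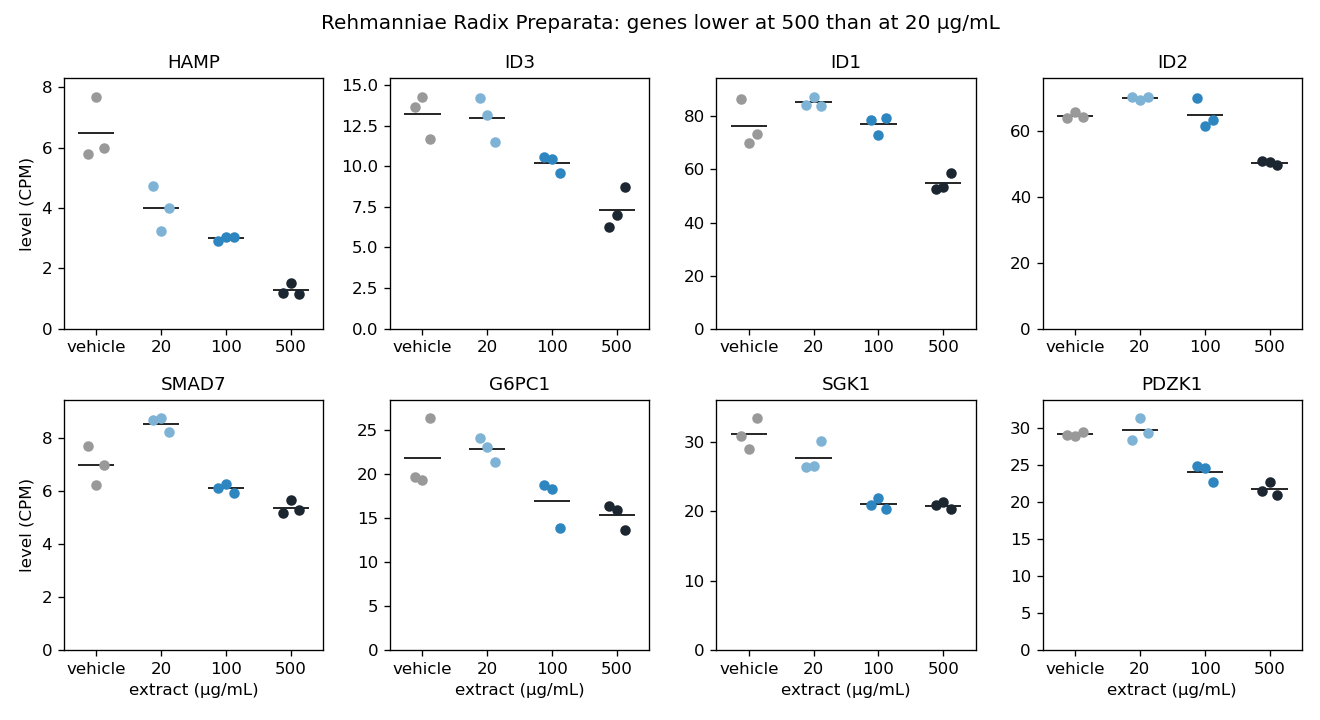
Points are CPM of single libraries and lines their means (n = 3) in vehicle and at 20, 100 and 500 µg/mL of Rehmanniae Radix Preparata for 8 genes called lower at 500 than at 20 µg/mL. SGK1 at 100 µg/mL lies at its level of 500 µg/mL, while ID1 and ID2 at 100 µg/mL lie nearer to 20 µg/mL.

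The other genes among the 12 largest falls include enzymes and transporters of the hepatocyte. G6PC1, the glucose-6-phosphatase that releases glucose (ENSG00000131482; chromosome 17, 42900797 to 42913369), had 16.4, 15.9 and 13.6 CPM at 500 µg/mL, against 24.1, 23.0 and 21.3 CPM at 20 µg/mL (-0.58 ± 0.11, adjusted p = 0.00143). It was the 1 called gene of 18 measured on the gluconeogenesis and insulin list, whose median was -0.11, beside 0.315% of all genes called lower. PCK1, the other rate-setting enzyme, was at -0.09 (95% interval -0.32 to 0.14), and IGFBP1, an insulin-repressed secreted protein, at -0.52 (-0.87 to -0.16, adjusted p = 0.198). The glutamate transporter SLC1A2 had 35.6, 36.8 and 31.3 CPM, against 46.1, 44.8 and 52.0 CPM (-0.47 ± 0.075, adjusted p = 8.9e-05). The scaffold protein PDZK1 had 21.4, 22.7 and 21.0 CPM, against 28.4, 31.3 and 29.2 CPM (-0.45 ± 0.061, adjusted p = 4.25e-06). SGK1, a kinase induced by steroids and insulin, had 20.9, 21.3 and 20.3 CPM, against 26.4, 26.6 and 30.1 CPM (-0.42 ± 0.082, adjusted p = 0.00209). It was the 1 called gene of 12 measured on the list of mineralocorticoid and ion handling. The semaphorin SEMA3B (-0.43 ± 0.077), the progestin receptor PAQR8 (-0.42 ± 0.063) and YPEL3 (-0.41 ± 0.090) complete the 12. The calls of SGK1 and YPEL3 were lost in 1 and 2 of the 6 fits without 1 library.

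At low counts, EPCAM-DT fell by 1.22 on the log2 scale (12, 17 and 20 reads at 500 µg/mL, against 36, 28 and 33 reads at 20 µg/mL). The ganglioside synthase ST3GAL5 fell by 0.84 (29, 34 and 40 reads, against 55, 41 and 61 reads). Both averaged under 2 CPM.

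Further lists had 1 or 2 called members each, beside 0.359% higher and 0.315% lower of all genes tested. The complement factor CFB (-0.23 ± 0.037) and the inter-alpha-trypsin inhibitor ITIH3 (-0.31 ± 0.053) fell among 17 acute phase and complement genes (11.8%). Complement C5, which is on none of the lists described and was seen afterwards, fell by 0.27 (SE 0.046). NFKBIA, the NF-κB inhibitor and target, fell by 0.28 (1 of 11), the YAP target CCN2 by 0.33 (1 of 15) and the p53 target TP53INP1 by 0.29 (1 of 20). The calls of NFKBIA and CCN2 were lost in 3 and 4 of the 6 fits without 1 library. The acetate-activating enzyme ACSS2 fell by 0.21 and was the 1 called gene of 17 for fatty acid synthesis. The neutral amino acid transporter SLC38A2 fell by 0.21 and is on the lists of the ATF4 response (1 of 27) and of osmotic response (1 of 9), but its call was lost in 5 of the 6 fits and with RLE size factors. GPD1, glycerol-3-phosphate dehydrogenase, rose by 0.30 (1 of 14 on the sugar sensing list), a call lost in 4 of the 6 fits. SQSTM1 was the 1 called gene of 22 for lysosome and autophagy. The zinc importer SLC39A14 fell by 0.19 and was the 1 called gene of 12 for metallothioneins and zinc transport.

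No member was called in the lists of hypoxia and glycolysis (34 genes, median 0.03), cholesterol synthesis and uptake (24 genes, -0.08) or PPARA targets (20 genes, -0.05). The same holds for the unfolded protein response (20 genes, -0.02), heat shock (18 genes, -0.02), mitosis (27 genes, 0.04), DNA replication (27 genes, 0.01) and the interferon response (12 genes, -0.07). Among cholesterol genes 23 of 24 were negative, beside a median of -0.0022 over all genes tested. Ribosomal protein genes had 48 of 59 positive, with RPL32 at 0.25 ± 0.068 (adjusted p = 0.0622). All 15 mitochondrial genes were positive, with a median of 0.17, beside the higher mitochondrial share of replicate 1 at 500 µg/mL. Without that library the median of this list was -0.01. The main comparison then called 94 genes, 82 of them among those called above. A fit without genes of the mitochondrial genome called 108 genes, and all 108 were among those called above. The part of that share in other results was not tested beyond these fits. The lists of bile acid synthesis, secreted liver proteins, hepatocyte transcription factors, the urea cycle, Wnt targets, the circadian clock, the proteasome, ribosome biogenesis and the nuclear respiratory chain also had no called member, with medians from -0.08 to 0.07. The AP-1 gene FOSL1, at 0.40 ± 0.11 (adjusted p = 0.0597), was the closest to the threshold among 24 immediate early genes.

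**Figure D4:**
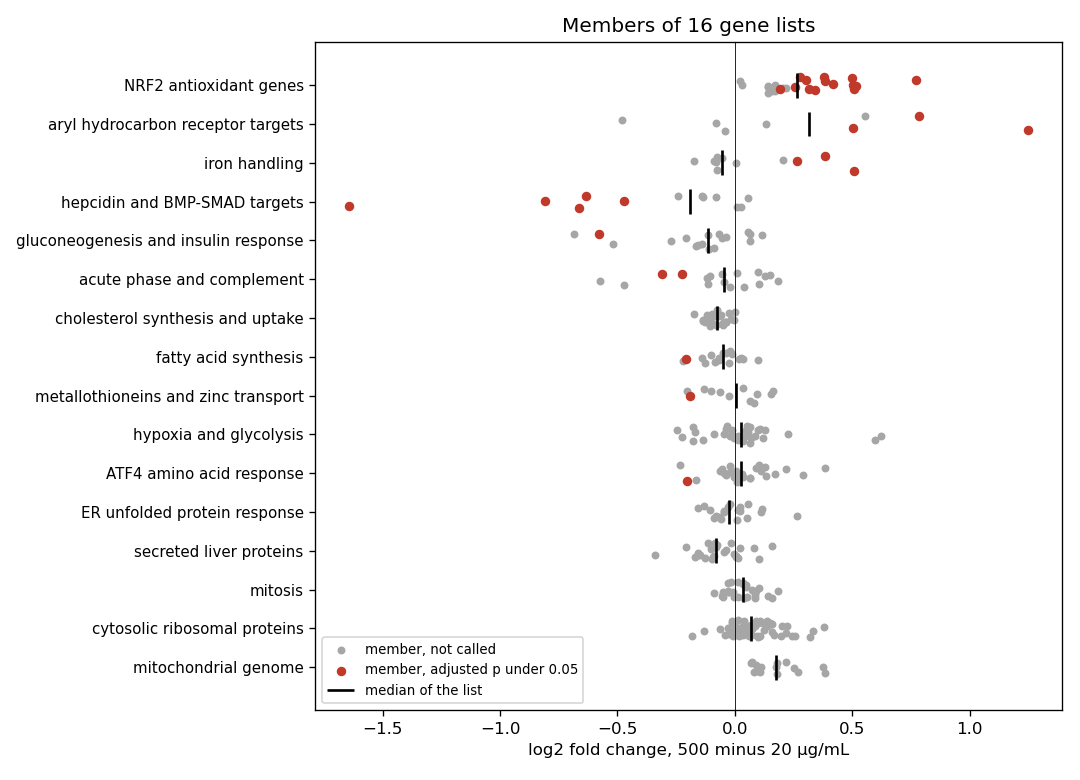
Each point is a measured member of 1 of 16 gene lists, placed by its log2 fold change, 500 minus 20 µg/mL; red points were called and black bars mark the list medians. Called members lie to the right for NRF2, AhR and iron genes and to the left for hepcidin and BMP-SMAD targets.

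The dose of 100 µg/mL enters neither side of the main comparison. Its mean lay between the other two in 105 of the 109 called genes, beside 42.8% of all genes tested, but genes chosen for a gap between 500 and 20 µg/mL favour this, so nothing is read from it. Since the comparisons below share libraries with the main one, their values are given side by side.

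At 500 against 100 µg/mL, 13 genes rose (0.0804%) and 4 fell (0.0247%), with 669 at an unadjusted p under 0.05. The higher genes were AKR1B10, AKR1C1, AKR1C2, ALDH3A1, CYP1A1, GCLM, GPX2, HMOX1, IKBKG, NQO1, PIR, SPP1 and SQSTM1. HAMP, ID1, ID2 and the Wnt receptor FZD4 were lower. Of these 17 calls, 11 to 13 were left without any 1 of the 6 libraries, with 11 without replicate 2 or 3 at 100 µg/mL or replicate 3 at 500 µg/mL. ALDH3A1 had 1.42, 1.38 and 1.33 CPM at 20 µg/mL, 1.69, 0.97 and 1.78 CPM at 100 µg/mL and 3.49, 3.51 and 2.86 CPM at 500 µg/mL. The first 2 doses overlap and the third stands apart, with 1.12 ± 0.19 for 500 against 100 µg/mL and 0.12 ± 0.23 for 100 against 20 µg/mL. CYP1A1 gave 0.74 ± 0.10 and 0.04 ± 0.11 for the same steps, and SPP1 0.50 ± 0.067 and -0.01 ± 0.067. AKR1C1 was 0.43 ± 0.052 for the upper step and -0.11 ± 0.053 for the lower one, where it did not pass.

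At 100 against 20 µg/mL no gene rose (0%), and 9 fell (0.0557%), with 874 at an unadjusted p under 0.05. They were SMAD7, SGK1, ITIH3, PDZK1, the zinc finger gene ZNF704, the activin antagonist FST, KLHL14, JAKMIP2 and the pseudogene GTF2IP7. SMAD7 had 8.65, 8.73 and 8.20 CPM at 20 µg/mL, 6.10, 6.26 and 5.90 CPM at 100 µg/mL and 5.17, 5.63 and 5.28 CPM at 500 µg/mL. Its lower step was -0.49 ± 0.089 (adjusted p = 0.0264) and its upper step -0.18 ± 0.092. SGK1 was -0.40 ± 0.083 for the lower step (adjusted p = 0.0338) and -0.02 ± 0.083 for the upper one. HAMP in turn had 3.00 ± 0.078 CPM at 100 µg/mL (SD, n = 3), with -0.42 ± 0.17 for the lower step (adjusted p = 0.815) and -1.23 ± 0.20 for the upper one (adjusted p = 0.000556). JAKMIP2 did not follow the dose order. It had 3.57, 4.10 and 3.57 CPM at 20 µg/mL, 1.83, 1.72 and 2.58 CPM at 100 µg/mL and 3.36, 3.26 and 2.68 CPM at 500 µg/mL. These 9 calls were lost in whole when replicate 1 or 3 at 100 µg/mL, or replicate 1 or 2 at 20 µg/mL, was left out, and 3 to 5 genes were called without replicate 2 at 100 or replicate 3 at 20 µg/mL.

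Vehicle levels place the pair on a wider scale, although the vehicle codes name no set and differences between sets cannot be told apart from treatment there. With the same limit from the choice of genes, the vehicle mean lay between the means at 500 and 20 µg/mL in 42 of the 58 higher and 35 of the 51 lower genes. It was beyond the mean at 20 µg/mL in 12 and 12, and beyond the mean at 500 µg/mL in 4 and 4. On the log2 scale it was nearer to the mean at 20 µg/mL in 32 and 33, and nearer to the mean at 500 µg/mL in 26 and 18. All 3 libraries at 500 µg/mL were above all 3 vehicle libraries in 41 of the 58 higher genes, and below them in 34 of the 51 lower ones. None of these vehicle counts was made over all genes tested, and the genes were chosen for their levels at 500 µg/mL. Nothing is therefore read from these counts. AKR1B10 had 40.1, 38.8 and 40.3 CPM in vehicle, near its level at 20 µg/mL. HAMP had 5.78, 7.67 and 5.98 CPM in vehicle, above all libraries at 20 µg/mL. MGST1, by contrast, had 200, 180 and 171 CPM in vehicle, overlapping its 198, 200 and 206 CPM at 500 µg/mL, against 147, 144 and 175 CPM at 20 µg/mL.

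Cnidii Rhizoma, the other extract of set 5, offers a comparison of 500 with 20 µg/mL that shares no library with the one above. The difference between the 2 dose effects was called for 11 genes (0.068%), 10 with a higher value for Rehmanniae Radix Preparata (0.0619%) and 1 with a lower one (0.00619%), and 1082 had an unadjusted p under 0.05. On the list of metallothioneins and zinc transport, 5 of 12 measured members were among the 11 genes, all of them metallothioneins. They were far lower at 500 than at 20 µg/mL of Cnidii Rhizoma and not called with Rehmanniae Radix Preparata.

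MT1G had 97.1, 86.8 and 84.9 CPM at 500 µg/mL of Rehmanniae Radix Preparata, against 91.2, 66.7 and 81.2 CPM at 20 µg/mL, which overlap (0.16, 95% interval -0.06 to 0.39). With Cnidii Rhizoma it had 31.5, 34.9 and 22.7 CPM at 500 µg/mL, against 88.5, 86.1 and 86.2 CPM at 20 µg/mL (-1.53 ± 0.12, adjusted p = 1.64e-13). The difference of differences was 1.70 ± 0.16 (adjusted p = 8.19e-10). MT2A, whose promoter is printed above, had 396, 371 and 366 CPM, against 472, 366 and 404 CPM, with Rehmanniae Radix Preparata (-0.13, 95% interval -0.36 to 0.10). With Cnidii Rhizoma it had 163, 192 and 139 CPM at 500 µg/mL, against 416, 450 and 378 CPM at 20 µg/mL, and the difference was 1.20 ± 0.16 (adjusted p = 9.66e-06). MT1E (1.18 ± 0.14), MT1F (1.13 ± 0.16) and MT1X (0.88 ± 0.15) differed in the same way. In Rehmanniae Radix Preparata their own changes were 0.04 (-0.16 to 0.23), -0.21 (-0.42 to 0.01) and 0.09 (-0.11 to 0.30). These genes are close paralogs, and reads may be shared among them. The difference for MT1X lost its call when only set 5 or only the compared groups were fitted. It was also lost without replicate 1 of both extracts at 500 µg/mL. The other metallothioneins kept their calls under every alternative.

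**Figure D5:**
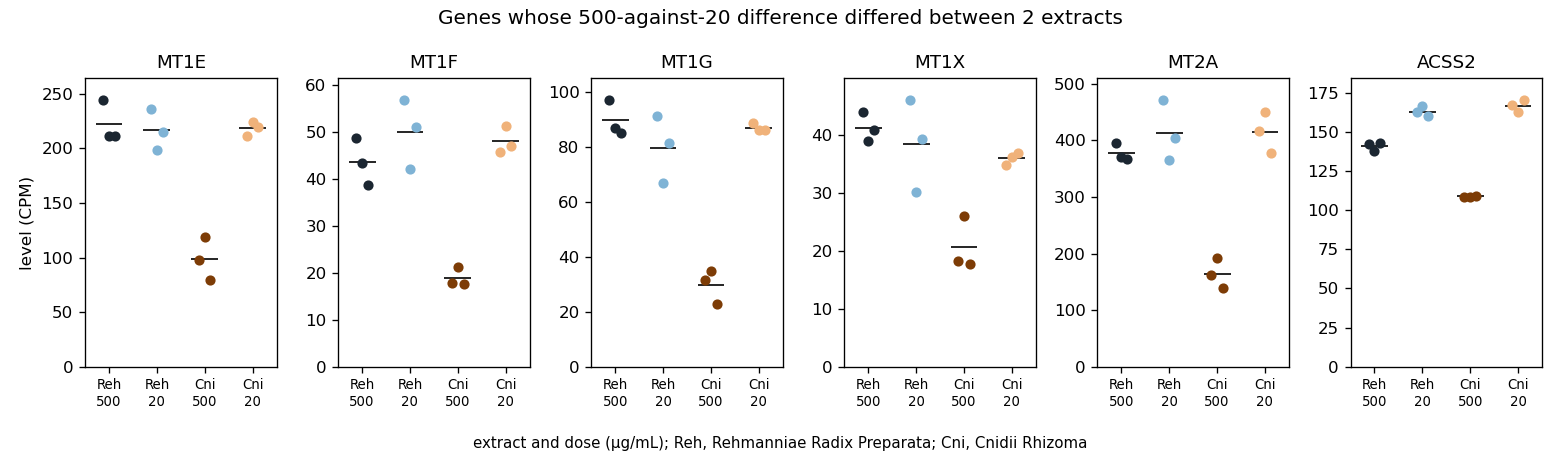
Points are CPM of single libraries and lines their means (n = 3) for 5 metallothionein genes and ACSS2 at 500 and 20 µg/mL of Rehmanniae Radix Preparata (Reh) and of Cnidii Rhizoma (Cni). The metallothioneins at 500 µg/mL of Cnidii Rhizoma lie below all other libraries, while the doses of Rehmanniae Radix Preparata overlap.

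Among the other 6 genes, 4 make lipids or their precursors. The difference was called for 3 of 17 measured members of the fatty acid synthesis list. It was called for 1 of 24 on the cholesterol list, beside 0.0619% of all genes called with a higher value. ACSS2 had 142, 138 and 143 CPM at 500 µg/mL of Rehmanniae Radix Preparata, against 162, 166 and 160 CPM at 20 µg/mL, and 108, 109 and 109 CPM at 500 µg/mL of Cnidii Rhizoma, against 167, 163 and 170 CPM at 20 µg/mL. The groups were clear of each other by dose with both extracts, and the fall was smaller with Rehmanniae Radix Preparata (difference 0.41 ± 0.055, adjusted p = 9.66e-06). ATP citrate lyase ACLY (0.24 ± 0.044), the desaturase FADS2 (0.31 ± 0.066) and the isoprenoid enzyme FDPS (0.26 ± 0.056) fell with Cnidii Rhizoma and were not called with Rehmanniae Radix Preparata. The call of the difference was lost in 1 of the 12 fits without 1 library for ACLY and in 7 each for FADS2 and FDPS, and for all 3 when only set 5 was fitted, whereas ACSS2 kept it under every alternative. SPP1 rose with Rehmanniae Radix Preparata and was at 0.00 ± 0.067 with Cnidii Rhizoma (difference 0.49 ± 0.094, adjusted p = 0.00876), a call lost in 2 of the 12 fits. The SPP1 call was also lost when only set 5 or only the compared groups were fitted. ST3GAL5 was the 1 gene with a lower value for Rehmanniae Radix Preparata (-1.05 ± 0.21, adjusted p = 0.0424), at low counts, and its call was lost in 9 of the 12 fits without 1 library and with DESeq2. No gene of the NRF2 or BMP lists was among the 11. Without replicate 2 of Cnidii Rhizoma at 500 µg/mL the count was 27, and without replicate 3 of Rehmanniae Radix Preparata at 500 µg/mL it was 6.

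Most genes called for Rehmanniae Radix Preparata had the same sign in Cnidii Rhizoma at 500 against 20 µg/mL. This was so for 54 of the 58 higher and 50 of the 51 lower genes, beside 60.3% of all genes tested. Of these, 27 and 36 were called there in the same direction (beside 1.35% higher, 1.86% lower and 3.22% in all of the genes tested), and 0 were called in the opposite direction. The values side by side were 0.77 ± 0.069 with Rehmanniae Radix Preparata and 1.16 with Cnidii Rhizoma for AKR1B10, 0.50 and 0.22 for NQO1, and -1.64 and -1.86 for HAMP. For CYP1A1 they were 0.78 and 0.11 (adjusted p = 0.703 with Cnidii Rhizoma) and for HMOX1 0.28 and -0.03 (adjusted p = 0.865), but neither of these was called in the test of the difference.

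Samul-tang has another set number in its codes, of unknown meaning, so each dose difference was taken within its own set. The difference was called for 268 genes (1.66%), 183 with a higher (1.13%) and 85 with a lower value (0.526%) for Rehmanniae Radix Preparata, and 3353 had an unadjusted p under 0.05. This count ran from 7 without replicate 2 of Samul-tang at 20 µg/mL to 1549 without replicate 1, and only genes that kept their call in all 12 fits without 1 library are described. CYP1A1 had 16.6, 18.8 and 20.1 CPM at 500 µg/mL of Rehmanniae Radix Preparata, against 10.5, 10.2 and 11.5 CPM at 20 µg/mL. With Samul-tang it had 78.2, 77.2 and 80.4 CPM at 500 µg/mL, against 14.2, 17.7 and 13.8 CPM at 20 µg/mL, a difference of -1.58 ± 0.14 (adjusted p = 9.78e-11). HAMP fell more with Samul-tang, to 0.466, 0.375 and 0.397 CPM at 500 µg/mL, against 3.69, 6.53 and 4.88 CPM at 20 µg/mL (difference 1.96 ± 0.34, adjusted p = 0.0019). ID3 differed by 1.14 ± 0.18 and MT1G by 1.09 ± 0.16. DCDC2, a microtubule-binding protein, differed by -0.55 ± 0.097. When only the 4 compared groups were fitted, 2 genes were called, and of these 5 only CYP1A1 kept its call. Of the genes called for Rehmanniae Radix Preparata, 28 of 58 higher and 30 of 51 lower were called in the same direction with Samul-tang, beside 4.48% higher, 5.4% lower and 9.88% in all of the genes tested.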

How the data were processed

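RNA of HepG2 cells was sequenced as 100 bp paired ends from strand-marking libraries, per the labels, which ask for an integrity number over 7. The authors deposited expected counts, that is estimated and not normalised reads of each gene; 8.58% of the values are not whole, which showed the unit. The submitters' processing notes name STAR 2.7.3a, RSEM 1.3.3, FastQC 0.11.9, Trim Galore 0.6.5 and build GRCh38, while the annotation release and strand setting are not given in the sources used here. The table holds 60675 Ensembl genes in 270 columns. Columns were matched to samples by the codes in the labels, and 210 columns were not used. For the vehicle, samples are labelled 0.1% DMSO but the design text says 2%. Symbols and positions came from a table of gene names and GENCODE release 29 (57055 IDs found).

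Counts were rounded and fitted in R 4.3.3 with edgeR 4.0.16 (filterByExpr, 16167 genes; TMM factors 0.954 to 1.02 in this extract; 1 mean per group for 57 libraries in 19 groups; quasi-likelihood F test, two-sided; Benjamini-Hochberg over all genes). Palmul-tang, with 1 library per dose, was left out. SE is the log2 fold change divided by the square root of F, and 95% intervals use 38 residual degrees of freedom. CPM precision is bounded by the counting error at 18517548 to 31852616 counts per library in this extract. The fit was also run on counts simulated from its own model, with 1 spread per gene for all groups. That run cannot show whether a shared spread holds in the data.

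Named are the 12 largest called changes in each direction with at least 2 CPM, a symbol and no overlap, up to 4 called members of each of 39 gene lists (774 genes, 712 tested), or the smallest p of a list with none, and up to 5 genes per direction for each difference between extracts; members of the NRF2 and BMP-SMAD lists are given more fully, and some list members are not reported here. The comparison and lists were chosen with earlier results of these data known. Alternatives were a replicate block, RLE size factors, DESeq2 1.42.0, no filter, no mitochondrial genes, a straight line over log dose, fewer groups in the fit and each library left out.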

Additional observations from a re-analysis of the deposited data

Results flagged for a closer look

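The effect of 500 against 20 µg/mL differed between Rehmanniae Radix Preparata and Cnidii Rhizoma for 11 genes, by the test of the difference itself in edgeR (adjusted p under 0.05). The difference in log2 fold change was 1.70 for MT1G, 1.20 for MT2A, 1.18 for MT1E, 1.13 for MT1F and 0.88 for MT1X. It was 0.49 for SPP1, 0.41 for ACSS2, 0.31 for FADS2, 0.26 for FDPS, 0.24 for ACLY and -1.05 for ST3GAL5. In the 12 fits without 1 library, the call was lost in 9 for ST3GAL5, 7 each for FADS2 and FDPS, 2 for SPP1 and 1 for ACLY, and in 0 for the other 6 genes. The cause of these differences was not tested.

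Against Samul-tang, taken within its own set, the 5 largest differences in each direction that met the naming rule were these. The positive ones were 1.96 for HAMP, 1.14 for ID3, 1.09 for MT1G, 0.82 for the innate immune adaptor STING1 and 0.80 for MT2A. The negative ones were -1.58 for CYP1A1, -0.69 for LINC02015, -0.58 for the tRNA methyltransferase TRMT10A, -0.55 for DCDC2 and -0.51 for the lactonase PON3. The calls of STING1 and PON3 were lost in 6 and 8 of the 12 fits without 1 library, and those of MT2A, LINC02015 and TRMT10A in 2 each. Set and extract cannot be told apart in this contrast beyond what the dose difference within each set removes.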

How the results depend on the processing

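No called gene followed changed direction. Of the 109 genes, 54 kept their call in each of the 6 fits without 1 library and 41 under every alternative; of the 24 largest, 20 did so in both. The counts below are for 500 against 20, 500 against 100 and 100 against 20 µg/mL, then for the differences from Cnidii Rhizoma and Samul-tang (109, 17, 9, 11 and 268 in the report). With no filter on low counts they were 281, 92, 89, 138 and 975, with DESeq2 147, 20, 13, 19 and 661, and with RLE size factors 107, 17, 9, 11 and 271. Of the genes called with no filter, 82, 16, 7, 8 and 228 were among those called in the report. Fitting only set 5 gave 96, 16, 2 and 6, and sets 5 and 7 gave 61 for Samul-tang. Fitting only the compared groups gave 73, 21, 0, 5 and 2, of which 53, 14, 0, 5 and 1 were among the genes called in the report. Leaving out 1 library gave 69 to 107, 11 to 13, 0 to 5, 6 to 27, and 7 to 1549. The straight line over log dose gave 108. Without genes of the mitochondrial genome the counts were 108, 17, 9, 11 and 274. With both set 5 libraries of highest mitochondrial share at 500 µg/mL left out, chosen after seeing the data, 97 and 10 genes were called for 500 against 20 µg/mL and for the difference from Cnidii Rhizoma. The mitochondrial share difference, 1.17 percentage points, ran from -0.28 (without replicate 1 at 500 µg/mL) to 2.32 when 1 library was left out. The causes were not tested. List medians stayed between 0.25 and 0.28 for NRF2 and between -0.24 and -0.18 for BMP-SMAD targets.

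Same-numbered replicates of the compared groups did not deviate together in every pair: their correlations ran from -0.11 to 0.09 in the groups of the Cnidii Rhizoma difference (0 of 18 over 0.1) and from -0.07 to 0.18 in those of Samul-tang (2 of 18). The numbers were therefore not taken as pairs; a fit with replicate block gave 154, 24, 9, 17 and 634 calls. Genes of few reads, such as HAMP and ALDH3A1, are limited by counting error.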
